A study of Mus musculus with 3 samples.

Results

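Antigen presentation by MHC class II was examined in mature medullary thymic epithelial cells through 10 listed genes: the chain genes H2-Aa, H2-Ab1, H2-Ea and H2-Eb1, the peptide-exchange genes H2-DMa, H2-DMb1, H2-Oa and H2-Ob, the invariant chain gene Cd74, and the transactivator gene Ciita. Genes were matched by symbol, and 9 of the 10 had a probe set annotated to that symbol alone, among 19937 such genes on the array. Each of the 9 had 1 such probe set, and all 9 passed the brightness filter, which kept 12556 genes. H2-DMb1 was annotated only on a probe set that it shares with H2-DMb2, so it has no value of its own.

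The first group, AireKO, is labelled Aire–/–, and its labels name no floxed Sirt1 allele. The second, Sirt1cKO, carried Sirt1fl/fl with Foxn1-Cre, a driver active in thymic epithelium. The third, WT, carried Sirt1fl/fl without Cre, so both Sirt1cKO and its control had the floxed allele. All mice were labelled C57b/6 and were 6 weeks old. Cells were sorted as EpCAM+, CD45-, Ly51low and MHC-II high from pools of typically 3 mice, and each genotype had 1 library on Affymetrix Mouse Gene 1-ST arrays. The gate itself used surface MHC class II, so it sets a lower limit on the class II protein of the cells in every library, and the levels given here are those of cells chosen in that way. With 1 library per group there is no replicate and so no p-value, and each difference compares a pair of libraries only. Precision is limited by having so few arrays. In bulk samples, fewer cells of a type and less RNA per cell cannot be told apart.

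In class II presentation, an alpha and a beta chain form a groove that shows peptides from endosomes to CD4+ T cells. H2-Aa and H2-Ab1 encode the pair called I-A, and H2-Ea and H2-Eb1 the pair called I-E. The invariant chain encoded by Cd74 fills the groove until cathepsins cut it back, H2-DM then exchanges the remaining fragment for peptide, and H2-O restrains H2-DM. Ciita binds no DNA itself but is recruited to class II promoters by factors that sit on an X box and a Y box, and interferon-gamma signalling is the classical inducer of Ciita. Medullary thymic epithelium uses class II to display self-peptides to developing thymocytes.

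Promoter letters are shown for H2-Aa, H2-Eb1, H2-Oa and H2-Ob, which were below WT in Sirt1cKO. H2-DMa was also below WT there, at -0.15, and had no match to the X and Y letters. The part of these letters in the differences was not tested. Windows from 250 bases before to 50 bases after the start site came from RefSeq (GRCm38.p6), which held windows for 6 of the 10 genes. H2-Ab1, H2-Ea, Cd74 and Ciita had no window in the table. The letters searched on both strands were TGATTGG for the Y box, AACNNATGA for the X box and TGACGTCA for the cyclic AMP response element, and none of their matches below overlap. They were chosen after these windows had been read. The capitals mark the matches, with the gene's own strand read 5′ to 3′.
H2-Aa, chr17:34287852-34287933, minus strand: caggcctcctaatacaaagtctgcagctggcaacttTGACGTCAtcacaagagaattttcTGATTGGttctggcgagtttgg
H2-Eb1, chr17:34305746-34305827, plus strand: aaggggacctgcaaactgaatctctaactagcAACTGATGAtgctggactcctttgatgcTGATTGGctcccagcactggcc
H2-Oa, chr17:34092274-34092355, plus strand: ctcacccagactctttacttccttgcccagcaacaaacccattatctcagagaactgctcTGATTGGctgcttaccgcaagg
H2-Ob, chr17:34238786-34238867, plus strand: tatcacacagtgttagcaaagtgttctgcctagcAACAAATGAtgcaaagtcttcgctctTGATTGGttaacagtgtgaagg

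The Y box letters stood in 5 of the 7 windows of these genes, H2-DMb1 being the fifth, and in 7.82% of all 32851 windows of 300 bases. The match began 50 bases before the start site in H2-Aa, 61 in H2-Eb1, 45 in H2-Oa and 59 in H2-Ob. The X box letters matched in H2-Eb1, H2-Ob and H2-DMb1 and in 2.85% of all windows, with 19 bases between X and Y in H2-Eb1, 17 in H2-Ob and 20 in H2-DMb1. The response element letters matched in H2-Aa alone among these windows and in 1.79% of all windows. Both H2-DMa windows lacked a match to the X and Y letters. Because the letters were chosen after these windows had been read, the counts set beside the shares are no test of enrichment. A match describes letters and does not show binding.

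Before the levels, several features of the libraries bear on every direction. Levels of the targeted genes left the knockout labels unchecked: Aire stood at a log2 intensity of 11.55 in AireKO, 11.24 in Sirt1cKO and 11.97 in WT, and Sirt1 at 11.42, 11.27 and 11.40 in the same libraries. Neither probe set is known to cover a deleted exon. The description fields of the knockout libraries name each other's genotype, so AireKO and Sirt1cKO mean the library labelled so by its title. Xist, which coats the inactive X chromosome, was within background in AireKO, at 6.75, against 12.17 in WT, and the Y-linked gene Eif2s3y at 9.75 in AireKO against 4.23, within background, in WT. In Sirt1cKO both were above background, at 11.46 and 8.92. Genotype and this sex-linked difference cannot be told apart. Background was set at the 95th percentile of 1027 olfactory receptor genes, which lay at 6.89 in AireKO, 6.34 in Sirt1cKO and 6.02 in WT. All 13 mature medullary markers were above background in each library, among them Epcam and Fezf2.

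H2-Ea, the alpha chain of I-E, set AireKO apart from both other libraries. Its log2 level was 13.23 in AireKO, 5.90 in Sirt1cKO and 5.60 in WT, which on the linear scale were intensities of 9609, 59.6 and 48.4. The gene was bright in AireKO and within background in both other libraries. In AireKO the gene was therefore at least 148.3-fold above WT, and in Sirt1cKO at least 118.5-fold below AireKO, taking the background percentile as the level of the dim library. Between Sirt1cKO and WT no fold is given, since both were within background. In C57BL/6 mice the H2-Ea promoter carries a deletion and the gene is silent, as background knowledge, so this level goes against the strain label of the AireKO library. Aire genotype and any difference in strain background cannot be told apart, and this applies to every AireKO value that follows.

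The I-A chain genes and the I-E beta chain gene were lower in both knockout libraries than in WT, by less than 2-fold each, and stayed below WT under quantile, loess and median scaling. H2-Aa, the alpha chain of I-A, had a log2 level of 13.05 in AireKO, 13.04 in Sirt1cKO and 13.70 in WT. The knockout libraries nearly coincided, and WT stood above them: the difference from WT was -0.65 in AireKO and -0.66 in Sirt1cKO. H2-Ab1, the beta chain of I-A, had a level of 12.64 in AireKO, 13.13 in Sirt1cKO and 13.58 in WT. It was lowest in AireKO, where it was 1.92-fold lower than in WT, a log2 difference of -0.94, against -0.45 in Sirt1cKO. H2-Eb1, the beta chain of I-E, had a level of 12.59 in AireKO, 12.80 in Sirt1cKO and 13.47 in WT. Its differences from WT were -0.89 in AireKO and -0.67 in Sirt1cKO. In AireKO, the beta chain gene H2-Eb1 was thus below WT while its partner H2-Ea was far above it. Without replicates it cannot be said which neighbouring levels in these orders differ beyond their spread.

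**Figure D1:**
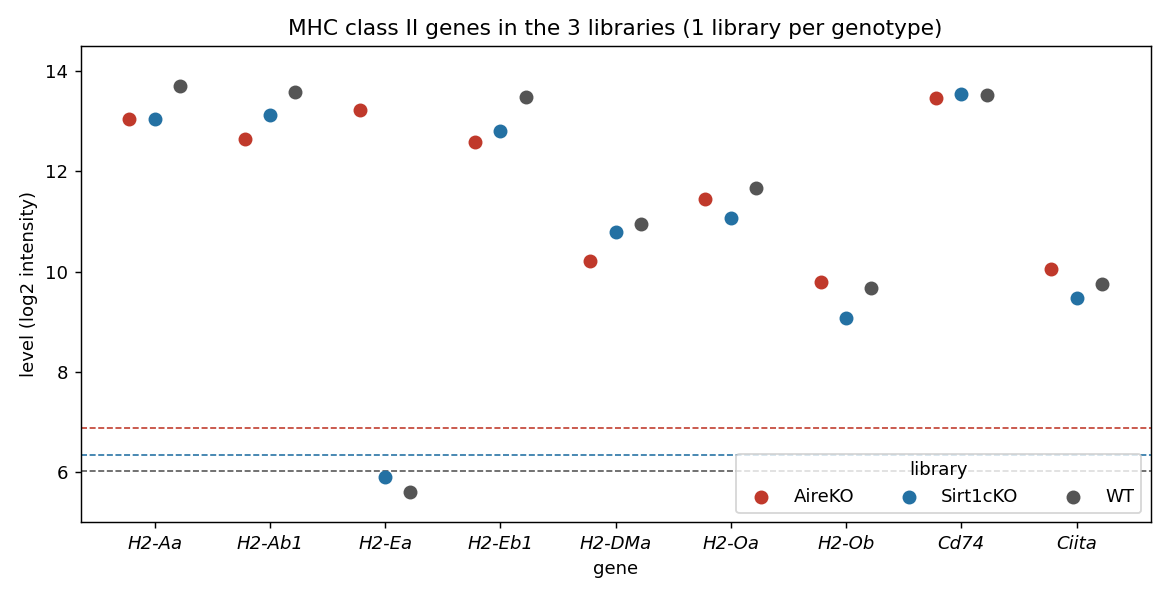
Log2 intensity (y axis) of the 9 class II genes with a probe set of their own (x axis) in AireKO, Sirt1cKO and WT, 1 point per library. Dashed lines in the library colours mark background at 6.89, 6.34 and 6.02; H2-Ea is the gene that lies below its line, in Sirt1cKO and WT, and Cd74 lies between 13.46 and 13.55 in all 3 libraries.

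The peptide-exchange genes did not share 1 order of libraries. H2-DMa, the alpha chain of the exchange factor H2-DM, had a log2 level of 10.20 in AireKO, 10.80 in Sirt1cKO and 10.94 in WT, with a difference from WT of -0.74 in AireKO and -0.15 in Sirt1cKO. AireKO was the low library here. H2-Oa, the alpha chain of the H2-DM inhibitor H2-O, had a level of 11.44 in AireKO, 11.07 in Sirt1cKO and 11.66 in WT. H2-Ob, the beta chain of H2-O, had a level of 9.79 in AireKO, 9.07 in Sirt1cKO and 9.68 in WT. Both H2-O genes were lowest in Sirt1cKO, with differences from WT of -0.59 and -0.61, or 1.51-fold and 1.52-fold lower. In AireKO the same genes differed from WT by -0.22 and 0.11, and the sign for H2-Oa turned to 0.055 when each library was centred on its median. Set against AireKO, Sirt1cKO was higher for H2-DMa, by 0.59, and lower for H2-Ob, by -0.72. The probe set annotated to both H2-DMb1 and H2-DMb2, which is assigned to neither here, stood at 11.74 in AireKO, 11.40 in Sirt1cKO and 12.17 in WT.

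Cd74 did not follow the chain genes in either knockout, and Ciita did not in AireKO. Cd74, which encodes the invariant chain, had a log2 level of 13.46 in AireKO, 13.55 in Sirt1cKO and 13.53 in WT. The 3 levels lay close together, with differences from WT of -0.072 in AireKO and 0.020 in Sirt1cKO, and these signs turned under scaling, to 0.20 in AireKO after median centring and to -0.0037 in Sirt1cKO after loess. Ciita, the transactivator, had a level of 10.04 in AireKO, 9.47 in Sirt1cKO and 9.75 in WT, so it was highest in AireKO and lowest in Sirt1cKO. Its difference was 0.29 for AireKO minus WT, -0.28 for Sirt1cKO minus WT and -0.57 for Sirt1cKO minus AireKO. In AireKO, then, Ciita stood above WT while the I-A genes and H2-Eb1 stood below it, and in Sirt1cKO all 4 genes stood below WT.

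Differences within an array can be set against each other without regard to a constant shift between arrays. Subtracting the Cd74 difference, H2-Aa, H2-Ab1 and H2-Eb1 were at -0.58, -0.87 and -0.81 for AireKO minus WT. For Sirt1cKO minus WT they were at -0.68, -0.47 and -0.69. Ciita on the same footing was at 0.37 in AireKO and -0.30 in Sirt1cKO. These values show unequal differences between genes on the same arrays, and do not show that Cd74 was unchanged.

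**Figure D2:**
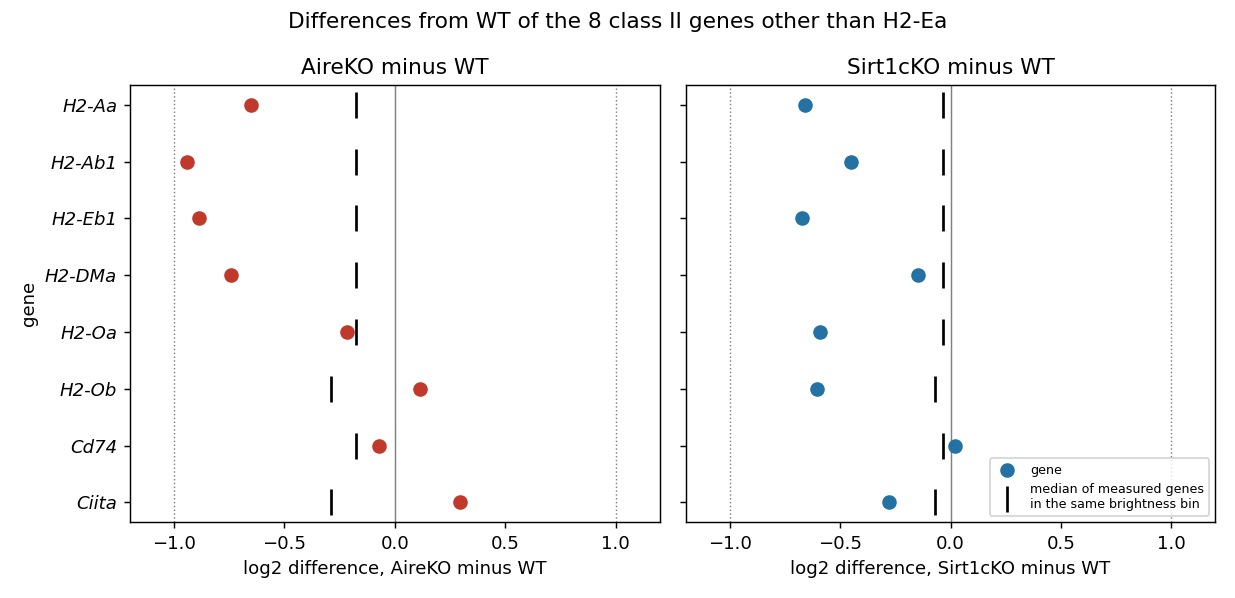
Log2 difference from WT (x axis) of the 8 class II genes other than H2-Ea (y axis), for AireKO in the left panel and Sirt1cKO in the right panel. Points are genes, black ticks are the median of measured genes in the same of 10 equal bins of mean brightness, and dotted lines mark 2-fold; H2-Aa, H2-Ab1 and H2-Eb1 lie left of their ticks in both panels, and no point passes a dotted line.

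Counted over the set, H2-Ea was the 1 gene of 9 higher in AireKO by 2-fold or more, and 2.68% of all measured genes were. In the same comparison 0 of 9 were at least 2-fold lower, where the share over all measured genes was 8.46%. At 1.5-fold, 4 of 9 were lower in AireKO, namely H2-Aa, H2-Ab1, H2-Eb1 and H2-DMa, but 23.6% of all measured genes were lower by as much in that library. H2-Ea was again the 1 gene higher, where the share was 8.52%. After median centring H2-Aa and H2-DMa came within 1.5-fold of WT in AireKO, at -0.38 and -0.47. H2-DMa also did after quantile scaling and loess, at -0.580 and -0.566. The balance over all measured genes depended on scaling: after median centring 4.36% passed 2-fold on the lower side and 5.62% on the higher side for AireKO minus WT. For Sirt1cKO minus WT, 0 of 9 were at least 2-fold lower, where the share over all measured genes was 1.68%, and 0 of 9 were at least 2-fold higher, where it was 0.804%. At 1.5-fold, 4 of 9 were lower in Sirt1cKO, namely H2-Aa, H2-Eb1, H2-Oa and H2-Ob, where the share over all measured genes was 8.27%. On the higher side there were 0, where the share was 4.01%. The count of lower genes depended on scaling. After median centring all 4 came within 1.5-fold of WT, at -0.564, -0.578, -0.493 and -0.509 in the listed order. H2-Oa and H2-Ob also came within it after quantile scaling, at -0.516 and -0.535, and after loess, at -0.560 and -0.544. For Sirt1cKO minus AireKO, H2-Ea was the 1 gene of 9 at least 2-fold lower, against 1.04% of all measured genes, and 0 of 9 were at least 2-fold higher, against 2.72%. At 1.5-fold, H2-Ea and H2-Ob were the 2 lower genes in Sirt1cKO, against 4.55%, and H2-DMa was the 1 higher gene, against 11.8%. After median centring the 2-fold shares over all measured genes in this comparison were 1.80% lower and 1.66% higher, while the 2-fold counts for the 9 genes were as before. At 1.5-fold, median centring brought H2-DMa within the limit, at 0.42, and took Ciita past it on the lower side, at -0.75.

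Over the 9 genes the median difference was -0.22 for AireKO minus WT, against -0.19 over all measured genes, and it turned to 0.055 after median centring. For Sirt1cKO minus WT it was -0.45, against -0.07 over all measured genes. For Sirt1cKO minus AireKO it was -0.0079, against 0.11 over all measured genes. Without H2-Ea the medians over 8 genes were -0.43, -0.52 and 0.042 in the same order.

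Brightness was then taken into account, because the offset between libraries varied with it. Measured genes were divided into 10 equal bins of mean brightness. In the brightest bin, which held H2-Aa, H2-Ab1, H2-Eb1, H2-DMa, H2-Oa and Cd74, the median difference was -0.18 for AireKO minus WT and -0.03 for Sirt1cKO minus WT. H2-Ob and Ciita lay in the bin below, with medians of -0.29 and -0.07. Of the 8 genes other than H2-Ea, 7 lay below the median of their bin in Sirt1cKO and 5 in AireKO. By construction, as many measured genes lie below a bin median as above it. H2-Ea was left out here because it was within background in Sirt1cKO and WT. Placed among the differences of all measured genes, H2-Eb1 lay at percentile 5.81, H2-Aa at 6.16, H2-Ob at 7.69, H2-Oa at 8.11 and H2-Ab1 at 14.3 for Sirt1cKO minus WT. Ciita lay at 26.6, H2-DMa at 40.4 and Cd74 at 60.6 in that comparison. For AireKO minus WT, H2-Ab1 lay at percentile 9.92, H2-Eb1 at 11.4, H2-DMa at 16.5 and H2-Aa at 20.3. H2-Oa lay at 47.9, Cd74 at 58.4, H2-Ob at 71.5 and Ciita at 81.2. For Sirt1cKO minus AireKO, H2-Ob and Ciita lay at percentiles 2.80 and 4.77, and H2-Oa at 10.4. H2-Aa lay at 37.5, Cd74 at 48.0, H2-Eb1 at 60.3, H2-Ab1 at 83.4 and H2-DMa at 88.5.

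H2-Ea lies at the end of the class II region on chromosome 17. Its AireKO minus WT difference lay at percentile 99.992, the highest of all measured genes, so no gene beside it could have matched it. The values of its neighbours are given as a description. The 10 nearest measured genes on each side were taken in the gene order of GRCm38.p6. For AireKO minus WT, 3 of the 20 passed 2-fold on the lower side and 1 on the higher side, with a range from -1.12 to 1.37, where the shares over all measured genes were 8.46% and 2.68%. The higher gene was BC051142, at a log2 level of 10.38 in AireKO, 9.48 in Sirt1cKO and 9.01 in WT. The lower genes were Tap1, a peptide transporter gene of class I presentation, at 9.12 in AireKO and 10.12 in WT, Btnl5-ps, with a difference of -1.01, and Rnf5, a ubiquitin ligase gene, with a difference of -1.12. H2-Eb2, the class II paralog next to H2-Ea, stood at 12.23 in AireKO, 11.98 in Sirt1cKO and 12.61 in WT. For Sirt1cKO minus WT, 0 of the 20 passed 2-fold in either direction, where the shares over all measured genes were 1.68% lower and 0.804% higher. The range there was -0.80 to 0.47. The median over the 20, which include class II genes of the set, was -0.63 in AireKO and -0.43 in Sirt1cKO. Over all measured genes it was -0.19 and -0.07. Tap1, Psmb9 and Psmb8, outside the set, differed from WT by -0.80, -0.78 and -0.59 in Sirt1cKO, so levels below WT there were not particular to class II genes.

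**Figure D3:**
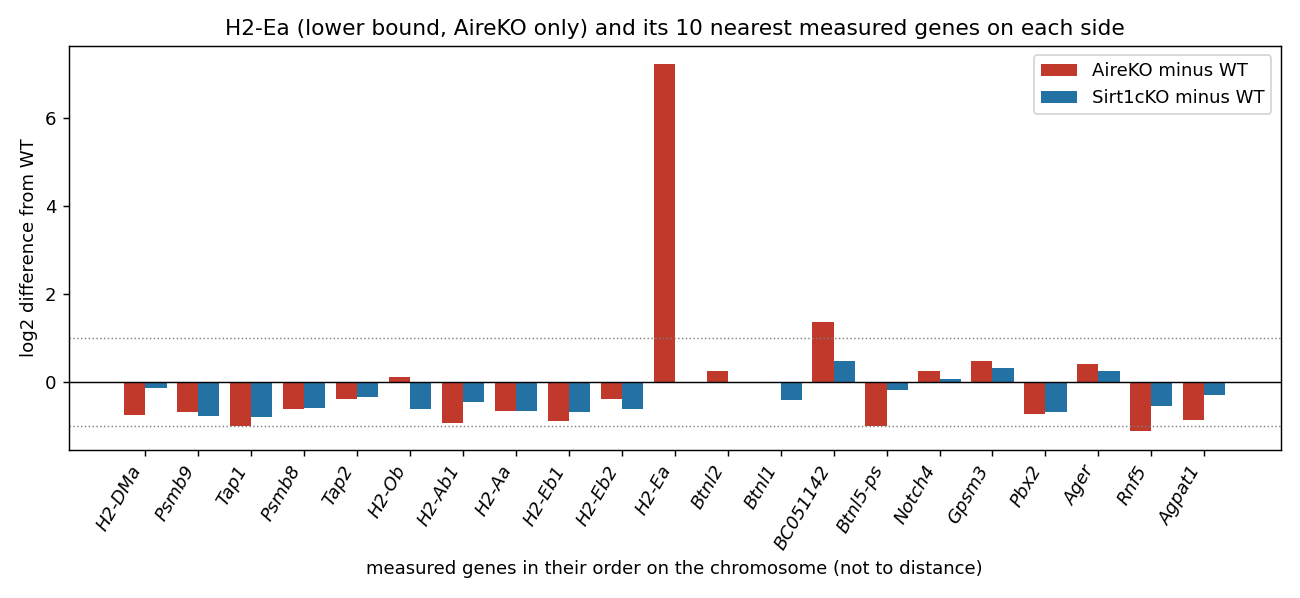
Log2 difference from WT (y axis) of H2-Ea and the 10 nearest measured genes on each side in chromosome order (x axis, not to distance), with AireKO bars left of Sirt1cKO bars. The H2-Ea bar for AireKO is the lower bound of 7.21, with no bar for Sirt1cKO since that library and WT were within background; the next highest bar, BC051142, reaches 1.37.

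Genes outside the set with the nearest pair of differences from WT were sought for H2-Ea, Cd74 and Ciita, by Euclidean distance on the log2 scale over 3 libraries. For H2-Ea the nearest were the Y-linked gene Srsy, the olfactory receptor gene Olfr1136 and the cytokine gene Il4. This order rests on H2-Ea values within background in Sirt1cKO and WT, so no distance is given. Srsy stood at 11.07 in AireKO, 9.10 in Sirt1cKO and 5.94 in WT, and Il4 at 10.25, 6.80 and 6.54. For Cd74 the nearest were Hps3, Ppia and Papolg, with distances between 0.0017 and 0.0042. For Ciita they were Itga2b, Mybl2 and Snx31, with distances between 0.019 and 0.028. Many genes lie near small differences, so these names describe 3 arrays only.

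Among the factors that bind class II promoters, none of the 6 measured genes reached 2-fold in any comparison. Over all measured genes the shares were 8.46% lower and 2.68% higher for AireKO minus WT, and 1.68% and 0.804% for Sirt1cKO minus WT. For Sirt1cKO minus AireKO they were 1.04% and 2.72%. A count of 0 among so few genes is near these shares. This list holds the RFX subunits Rfx5, Rfxap and Rfxank, the NF-Y subunits and Creb1. Nfya, the NF-Y subunit that contacts the CCAAT letters, differed from WT by -0.58 in both AireKO and Sirt1cKO. Rfx5, the large RFX subunit, stood at 8.61 in AireKO, 8.32 in Sirt1cKO and 8.64 in WT. The list median was -0.24 for AireKO minus WT and -0.12 for Sirt1cKO minus WT.

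In the interferon-gamma route to Ciita, the genes past 2-fold were Ifngr2, Socs1 and Ifng, all in AireKO. Of 9 measured genes in AireKO, 2 lay below WT and 1 above WT by 2-fold or more, where the shares over all measured genes were 8.46% and 2.68%. In Sirt1cKO 0 passed 2-fold in either direction, where the shares were 1.68% and 0.804%. Ifngr2, the signalling chain of the interferon-gamma receptor, stood at 10.37 in AireKO, 11.56 in Sirt1cKO and 12.22 in WT, so that AireKO differed from WT by -1.85 and Sirt1cKO by -0.67. Socs1, a feedback inhibitor of this pathway, stood at 8.28, 8.90 and 9.39 in the same libraries, and its AireKO difference was -1.11. Ifng, the cytokine itself and a product of lymphocytes, stood at 8.37 in AireKO, 6.29 in Sirt1cKO, within background, and 6.58 in WT. Its AireKO difference of 1.79 was positive while those of Ifngr2 and Socs1 were negative. Irf1, an interferon-induced activator of Ciita, differed by -0.26 in AireKO and -0.23 in Sirt1cKO.

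Cofactors of Ciita and the deacetylases that act with them were mostly within 2-fold of WT. Of 11 measured genes, 1 was at least 2-fold lower in AireKO, the deacetylase gene Hdac2, at 8.71 in AireKO, 9.05 in Sirt1cKO and 9.73 in WT. That count is near the 8.46% over all measured genes. In Sirt1cKO 0 passed 2-fold, where the shares over all measured genes were 1.68% lower and 0.804% higher. The acetyltransferase gene Ep300 differed by 0.01 in AireKO and 0.50 in Sirt1cKO, and the remodeller gene Smarca4 by -0.70 and 0.02. The list median was -0.35 for AireKO minus WT and 0.02 for Sirt1cKO minus WT.

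Some proteases that prepare class II for peptide stood further below WT in AireKO than any chain gene did. Of the 8 genes, all measured, 3 stood below WT by 2-fold or more in AireKO, where the share over all measured genes was 8.46%. On the higher side there were 0, where the share was 2.68%. In Sirt1cKO 0 passed 2-fold, where the shares were 1.68% on the lower side and 0.804% on the higher side. Ctsd, a lysosomal aspartic protease gene, stood at 9.16 in AireKO, 10.32 in Sirt1cKO and 10.88 in WT, so that AireKO differed from WT by -1.72 and Sirt1cKO by -0.56. Ctsl, the invariant chain protease of cortical epithelium, stood at 8.95, 9.59 and 10.49 in the same libraries, and Ctsb at 9.59, 10.39 and 10.72. Ctss, the invariant chain protease of medullary epithelium and myeloid cells, differed by -0.46 in AireKO and -0.81 in Sirt1cKO, so here Sirt1cKO was the lowest library. Ifi30, the reductase that opens disulfide bonds of antigens, differed by -0.12 and -0.10. The list median was -0.51 in AireKO and -0.45 in Sirt1cKO. Among regulators of class II turnover and repression, Marchf1, a ubiquitin ligase gene for class II, was within background in all 3 libraries. Marchf8, a related ligase gene, stood at 8.01 in AireKO, 7.79 in Sirt1cKO and 8.25 in WT. Cd83, whose product opposes these ligases, differed by 0.11 in AireKO and 0.22 in Sirt1cKO, and Prdm1, a repressor of Ciita, by -0.60 and -0.36.

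Several of these AireKO values stood close to the 2-fold limit and depended on scaling. After quantile, loess or median scaling, Socs1, Hdac2, Ctsb, Tap1, Btnl5-ps and Rnf5 came within 2-fold of WT, with Socs1 at -0.92, -0.88 and -0.84 and Ctsb at -0.95, -0.94 and -0.86 under the 3 scalings in that order. Ifngr2, Ctsd, Ctsl, Ifng and BC051142 passed 2-fold in the same direction under all 3, Ifngr2 at -1.58 and Ctsd at -1.45 after median centring.

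**Figure D4:**
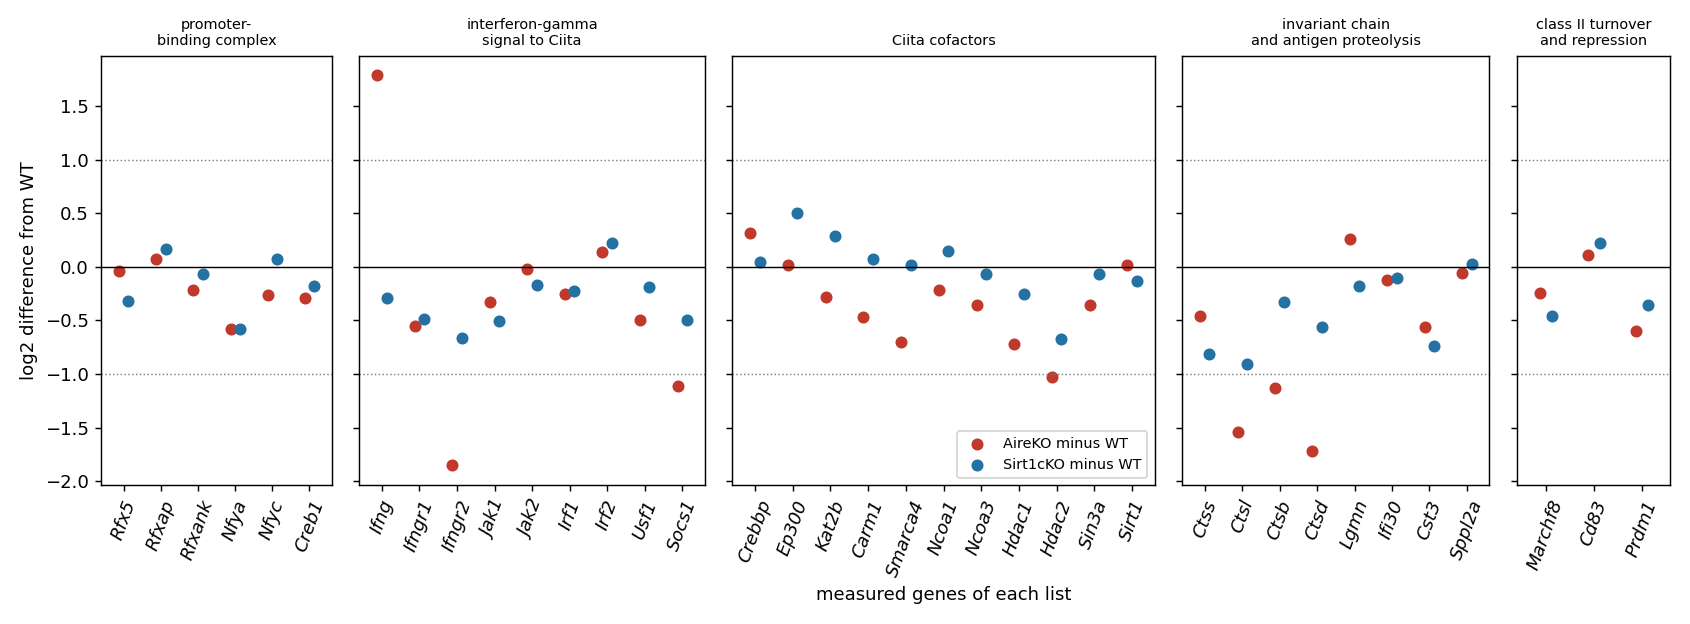
Log2 difference from WT (y axis) of the measured genes in 5 lists of the class II pathway (x axis), with AireKO points left of Sirt1cKO points and dotted lines at 2-fold. Ifng lies above the upper line, and Ifngr2, Socs1, Hdac2, Ctsl, Ctsb and Ctsd lie below the lower line, all in AireKO; no Sirt1cKO point passes a line.

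Other class II-bearing cells were followed by markers of dendritic cells, macrophages and B cells, of which 16 were on the array. Their summed intensity was 4898 in AireKO, 5128 in Sirt1cKO and 7054 in WT, but that order came from Lyz2: without it the other 15 summed to 3167, 2672 and 2793. Above background were 10, 12 and 14 of them, a count that also follows the background line, which was highest in AireKO: Siglech, Ms4a1 and Itgax had higher levels in AireKO than in WT and were above background in WT and not in AireKO. Clec9a and Cd79a, which mark cross-presenting dendritic cells and B cells, were within background in all 3 libraries. Other markers on the list were above background in all 3, among them Cd79b, Pax5, Xcr1, Zbtb46 and Ptprc. Cd79b stood at 9.39 in AireKO, 9.40 in Sirt1cKO and 9.49 in WT. Lyz2, a myeloid lysozyme gene, stood at 10.76 in AireKO, 11.26 in Sirt1cKO and 12.06 in WT, while Cd68, a macrophage lysosomal gene, differed by 0.67 and Cd209a by 0.57 for AireKO minus WT. The macrophage genes Adgre1 and Csf1r were also below WT, by -0.77 and -0.44 in AireKO and by -0.56 and -0.54 in Sirt1cKO. Adgre1 was within background in AireKO. Of the 11 measured markers, 5 lay below WT in AireKO and 7 in Sirt1cKO. The median over the 11 measured markers was 0.07 for AireKO minus WT and -0.10 for Sirt1cKO minus WT. Of 10 thymocyte markers on the array, 5 were above background in AireKO, 6 in Sirt1cKO and 6 in WT, with summed intensities of 1455, 1498 and 1173, and Cd3d, Rag2, Dntt and Ptcra were within background throughout. The median over the 6 measured thymocyte markers was 0.34 for AireKO minus WT and 0.37 for Sirt1cKO minus WT. Of these 6, 2 lay below WT in AireKO and 1 in Sirt1cKO. Cd8b1 differed by 0.77 and 0.84, and Themis by 0.65 and 0.60. The mature medullary markers summed to 28846 in AireKO, 31228 in Sirt1cKO and 39151 in WT, and 11 of 13 in AireKO and 12 of 13 in Sirt1cKO lay below WT, as did 63.7% and 58.4% of all measured genes. Among them the tight-junction genes Cldn4 and Cldn3 and the keratin gene Krt5 differed from WT by -1.23, -1.16 and -1.09 in AireKO, but Cldn3 and Krt5 came within 2-fold under all 3 scalings and Cldn4 after median centring, at -0.96. Cd80 and Cd86 were the medullary markers above WT in AireKO, at 0.76 and 0.70. In Sirt1cKO they were at 0.36 and -0.37. Fezf2 differed by -0.0085 in AireKO and -0.075 in Sirt1cKO. The 13 include the targeted gene Aire and the protease gene Ctss, also given above. The 6 markers of cortical epithelium summed to 1716 in AireKO, 2171 in Sirt1cKO and 2865 in WT, with the thymus protease gene Prss16 at 7.05, 7.92 and 8.16. Ctsl, also given above as a protease, is among these 6. It had the largest difference from WT of them, at -1.54 in AireKO and -0.90 in Sirt1cKO. Cd83, also among them, went the other way, at 0.11 and 0.22. The part of these markers in the class II differences was not tested.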

How the data were processed

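The authors deposited 1 table of probe-set intensity values on a linear scale for 3 libraries, made with RMA per the submitters' processing notes. The software version, the annotation and the step back to a linear scale were, in the sources used here, not given. The log2 of each value was taken, with no further normalization. Of 34760 probe sets, the platform annotation gave 21640 a single symbol and 1321 more than 1 symbol, and left 11799 unlisted. The brightest probe set by mean was kept per gene. A gene was measured when its highest level reached the median of all values, 6.81. Entrez identifiers of 9 genes matched RefSeq (GRCm38.p6). Differences of at least 2-fold were counted.

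The genes, lists and tests were chosen with earlier results of these data known. The gene-naming rule took all members, up to 3 genes per list past 2-fold, and the 3 most alike genes of H2-Ea, Cd74 and Ciita, leaving out predicted genes and small RNAs. Chromosome neighbours, the library checks and other genes named within a list were chosen after values had been seen. The 10 alternative settings covered quantile, loess (span 0.3) and median scaling, probe sets, filters, folds, exchanged labels and leaving out H2-Ea, and 1 was added after seeing the data. Scripts ran under Python 3.11.15 with pandas 2.3.3, numpy 2.4.6 and, for loess, statsmodels 0.14.6, and counting was tested on simulated data.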

Additional observations from a re-analysis of the deposited data

How the results depend on the processing

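No paired analysis was possible because each genotype had 1 library. The median over the class II genes for AireKO minus WT, -0.22, became -0.10 after quantile normalization, -0.081 after loess, 0.055 after median centring, -0.43 without H2-Ea and -0.32 with the probe set shared by H2-DMb1 and H2-DMb2. For Sirt1cKO minus AireKO the median of -0.0079 became -0.18 after median centring, 0.042 without H2-Ea and -0.17 with the shared probe set. Median centring turned H2-Oa to 0.055 and Cd74 to 0.20 for AireKO minus WT, and Cd74 to -0.082 for Sirt1cKO minus AireKO, and loess turned Cd74 to -0.0037 for Sirt1cKO minus WT. A 1.5-fold limit gave 4 lower genes in AireKO, 4 lower genes in Sirt1cKO, and 2 lower and 1 higher for Sirt1cKO minus AireKO. The shares over all measured genes beside these counts were 23.6%, 8.27%, 4.55% and 11.8%, and no 1.5-fold share is given after rescaling. These counts hold for the deposited scaling. After median centring, H2-Aa and H2-DMa came within 1.5-fold in AireKO, and all 4 lower genes did in Sirt1cKO. For Sirt1cKO minus AireKO, H2-DMa came within 1.5-fold under quantile, loess and median scaling, at 0.52, 0.47 and 0.42. Ciita passed it there on the lower side, at -0.69, -0.73 and -0.75. Without H2-Ea, the 2-fold limit gave 0 higher genes for AireKO minus WT and 0 lower genes for Sirt1cKO minus AireKO. The shares over all measured genes there were 2.68% and 1.04%.

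With the labels exchanged, by construction, the count of higher genes was 0 for AireKO minus WT and 1 for Sirt1cKO minus WT, with medians of -0.45 and -0.22. H2-Ob, Cd74 and Ciita then stood at -0.61, 0.020 and -0.28 for AireKO minus WT, and at 0.11, -0.072 and 0.29 for Sirt1cKO minus WT. For Sirt1cKO minus AireKO the counts became 0 lower and 1 higher and the median 0.0079, with H2-Aa at 0.0079, H2-Ab1 at -0.49, H2-Ea at 7.33 against a level within background (a bound of 6.89), H2-Eb1 at -0.21, H2-DMa at -0.59, H2-Oa at 0.37, H2-Ob at 0.72, Cd74 at -0.092 and Ciita at 0.57. H2-Aa, H2-Ab1 and H2-Eb1 stayed below WT in both knockouts under quantile, loess and median scaling. Exchanging the labels could not change this, since it only swaps the knockout libraries. Median centring moved all differences by 0.27 for AireKO minus WT, 0.10 for Sirt1cKO minus WT and -0.17 for Sirt1cKO minus AireKO.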
